A study of Rattus norvegicus with 2 samples.

Results

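Cholesterol and fatty acid synthesis was followed through 32 genes in rat neural stem cells treated with ZD7288 or with vehicle. The members were chosen by symbol from a fixed list and all 32 were found among the 25399 genes of the deposited table. They comprised 17 genes of sterol synthesis, 11 of fatty acid synthesis and 4 that regulate or move sterols. The treated culture received 30 µM ZD7288 in 0.2% DMSO for 48 h, and the vehicle culture received 0.2% DMSO alone for 48 h. ZD7288 blocks hyperpolarisation-activated cyclic nucleotide-gated (HCN) channels. The label of the treated culture spells it ZD2788, while the study's title and treatment protocol spell it ZD7288. In both cultures the cells came from cerebral cortex of Sprague-Dawley rats at embryonic day 14.5, were bought from a commercial supplier, and were kept with FGF2, which holds them undifferentiated. Medium and compound were renewed in full at 24 h. The labels name no genetic alteration.

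Each group was 1 culture and 1 droplet library, so treatment, culture and library cannot be told apart and no test between groups was possible. Each captured molecule carried a unique molecular identifier (UMI), and levels are given as counts per 1000000 UMIs of the library (CPM). Ratios are ZD7288 over vehicle with an exact 95% interval that covers counting error only, and carries no information on how far 2 cultures of one kind differ. A gene was called measured when its mean over both libraries reached 20 CPM, and higher or lower when its log2 ratio was at least 0.32 in that direction, which is the limit used for all genes. After filtering, 3135 ZD7288 cells and 732 vehicle cells remained, with 73681950 UMIs in the ZD7288 library and 15611454 UMIs in the vehicle library. The median cell held 23001 UMIs in the ZD7288 library and 17119 UMIs in the vehicle library.

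The libraries also differed in make-up. Cells with at most 5% mitochondrially encoded UMIs made up 61.0% (59.3 to 62.7) of ZD7288 cells and 23.6% (20.6 to 26.9) of vehicle cells, and 3 barcode sequences occurred in both libraries. The neural stem cell markers fixed for this work were present at 7534.1 CPM in the ZD7288 library and 7603.8 CPM in the vehicle library, summed over 10 genes of which Vim and Fabp7 gave most UMIs. Single markers differed: of 8 measured, Msi1 and Slc1a3 were higher, at ratios of 1.94 and 1.58, Notch1, Sox9 and Fabp7 were lower, at 0.417, 0.568 and 0.764, and Sox2, Nes and Vim passed the limit in neither direction. Hes5 was at 0.0407 CPM in the ZD7288 library and 0.256 CPM in the vehicle library. The list of ATF4 amino acid response genes summed to 7206.3 CPM in the ZD7288 library and 2068.6 CPM in the vehicle library, and all 27 measured genes of that list were higher. Mesenchymal and endothelial markers held 423 UMIs in the ZD7288 library and 2 in the vehicle library, mainly Col1a1 and Col3a1, and the vehicle library had 0 UMIs of 4 of these 5 markers. Astrocyte markers summed to 46.5 CPM in the ZD7288 library and 33.6 CPM in the vehicle library, with Aqp4 at 0 UMIs in both, and neuron markers to 82.6 CPM in the ZD7288 library and 102.7 CPM in the vehicle library. Map2, the 1 measured gene of the neuron list, gave most of its UMIs and was lower, at a ratio of 0.674. The other neuron markers, all below the floor, went the other way. Tubb3, Stmn2 and Rbfox3 had ratios of 2.94, 2.59 and 2.07. Dcx, Neurod1 and Neurod6 had 18, 13 and 2 UMIs in the ZD7288 library and 1, 0 and 0 in the vehicle library. Microglia markers held 2 UMIs in the ZD7288 library and 0 in the vehicle library. The part of these other cell types in the results was not tested. Oligodendrocyte lineage markers summed to 1234.7 CPM in the ZD7288 library and 2272.0 CPM in the vehicle library, carried by Olig1, Olig2 and Cnp, which were all lower.

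Cholesterol is built from acetyl-CoA through mevalonate, farnesyl diphosphate, squalene and lanosterol, and fatty acids are built from acetyl-CoA by carboxylation, chain building, elongation and desaturation. Both routes are controlled by sterol regulatory element-binding proteins (SREBPs), which the Insig proteins hold in the endoplasmic reticulum when sterols are plentiful. Dividing neural precursors need both products for new membrane, and brain cells make nearly all of their cholesterol themselves because plasma lipoproteins do not cross the blood-brain barrier.

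Promoters of 3 members are shown because these genes share SREBP control and stood on different sides of the comparison: Hmgcs1 was higher in the ZD7288 library, Scd2 was lower, and Insig1 had a ratio below 1. Each is the RefSeq window of 300 bases in build GRCr8, from 250 bases before to 50 bases after the start, on the gene's strand. Capitals mark the CCAAT box, in either orientation (CCAAT, or ATTGG where it lies on the other strand), which binds NF-Y, a partner of SREBPs. Hmgcs1 is at chr2:53382054-53382353 on the plus strand, Insig1 at chr4:8057720-8058019 on the minus strand and Scd2 at chr1:253118127-253118426 on the plus strand.
Hmgcs1: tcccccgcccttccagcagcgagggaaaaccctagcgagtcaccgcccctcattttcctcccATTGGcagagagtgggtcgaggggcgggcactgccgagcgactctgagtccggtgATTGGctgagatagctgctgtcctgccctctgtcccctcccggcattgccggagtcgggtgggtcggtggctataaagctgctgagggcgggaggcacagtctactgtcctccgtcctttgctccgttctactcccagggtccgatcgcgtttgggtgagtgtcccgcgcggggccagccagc
Insig1: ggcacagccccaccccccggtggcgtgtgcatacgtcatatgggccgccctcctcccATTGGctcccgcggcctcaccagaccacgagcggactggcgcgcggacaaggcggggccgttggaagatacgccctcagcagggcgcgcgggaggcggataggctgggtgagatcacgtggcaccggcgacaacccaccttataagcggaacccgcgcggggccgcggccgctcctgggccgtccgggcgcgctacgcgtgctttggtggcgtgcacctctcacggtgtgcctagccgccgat
Scd2: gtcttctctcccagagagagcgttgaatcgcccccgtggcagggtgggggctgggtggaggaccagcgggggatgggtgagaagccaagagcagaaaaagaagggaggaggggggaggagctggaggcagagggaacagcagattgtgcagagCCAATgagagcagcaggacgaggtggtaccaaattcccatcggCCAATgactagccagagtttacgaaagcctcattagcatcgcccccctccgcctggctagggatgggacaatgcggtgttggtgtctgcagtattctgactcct

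The Hmgcs1 and Scd2 windows each held a pair of CCAAT boxes, and the Insig1 window held 1. Such a window was found for 25 of the 32 members. The CCAAT box was present in 19 of these 25, against 37.5% of 33469 rat promoters of the same length. The GC box GGGCGG, which binds Sp1, was present in 20 of the 25, against 33.1% of all promoters. The SREBP site TCACNCCAC was found in 0 of 25, against 1.12% of all promoters. The amino acid response site TGATGNAAT was also found in 0 of 25, against 1.09%. Members were counted once each, with a match in any of their windows, while all promoters were counted per window. The shares are thus not in like units. All motifs were searched on both strands, and none of these 4 sets of letters was counted as a binding site. A window without a match says only that these letters are not in it.

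Of the 32 members, 24 were measured. Hmgcs1, Idi1 and Srebf1 were higher in the ZD7288 library, Scd2 and Elovl6 were lower, and 19 passed the limit in neither direction. The 3 higher members were 12.5% of those measured, while 26.1% of all 4556 measured genes were higher. The 2 lower members were 8.33%, beside 12.2% of all measured genes. Neither share stood above that of all genes. At 1.5-fold Srebf1 remained as the 1 higher member, with 0 lower, against 9.22% of all genes higher and 4.17% lower. The measured members had a median log2 ratio of 0.10 (quartiles -0.15 to 0.26), beside 0.09 (quartiles -0.15 to 0.33) for all measured genes. The 8 members below 20 CPM were Hsd17b7, Mvk, Acat2, Stard4, Acaca, Elovl5, Fads2 and Acsl4.

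**Figure D1:**
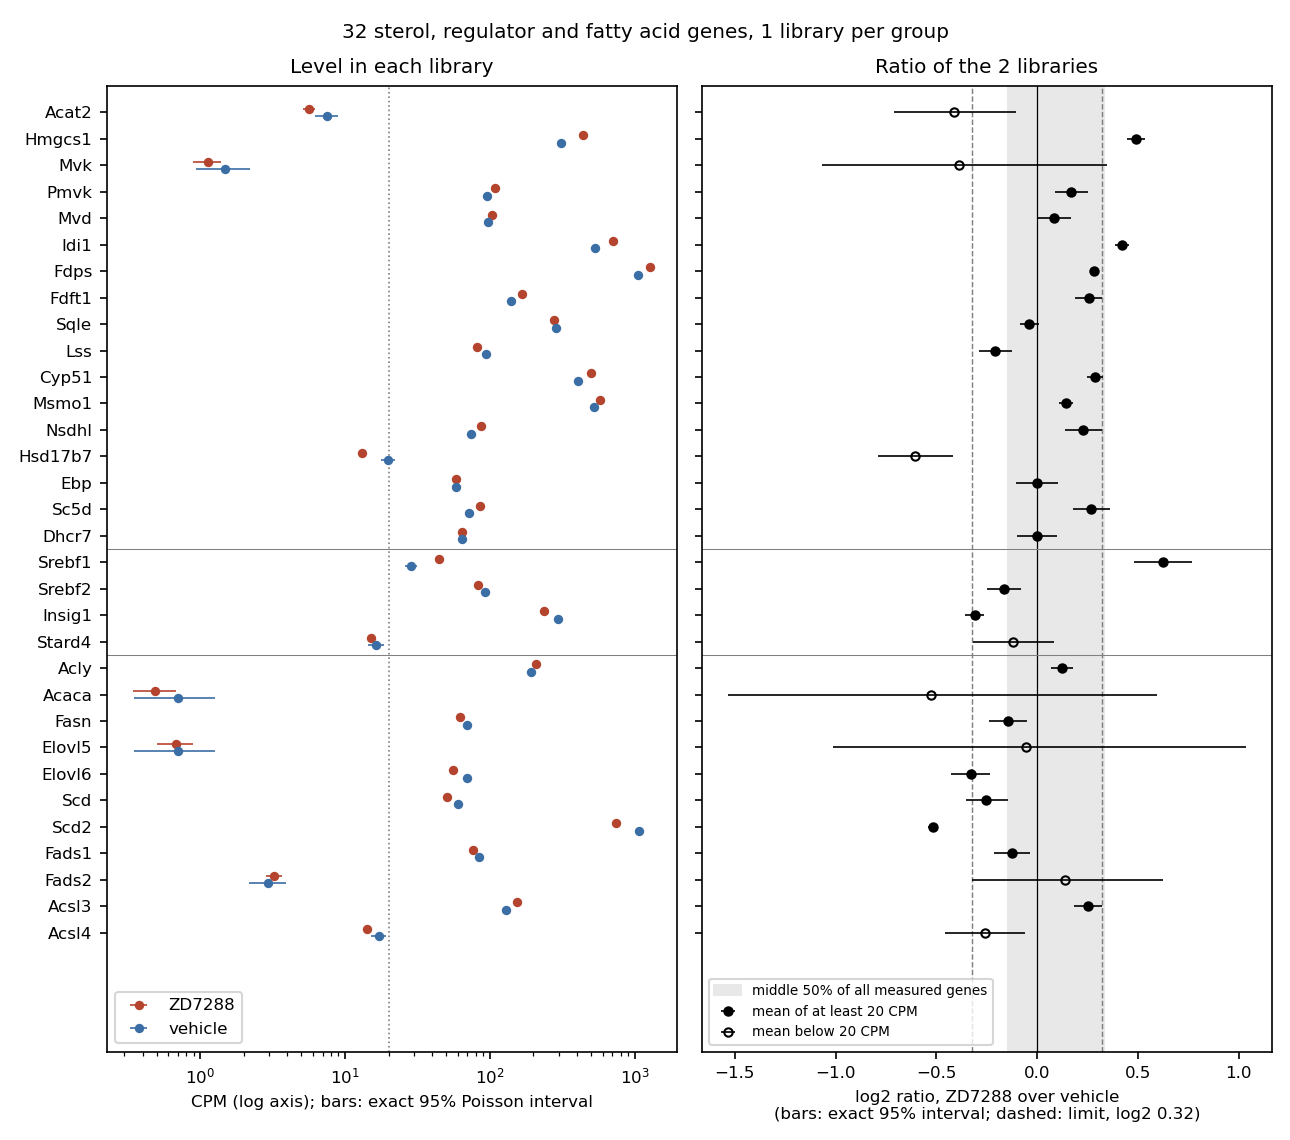
Level of each of the 32 members in the ZD7288 library (red) and the vehicle library (blue) on a log axis in CPM (left), and the log2 ratio of ZD7288 over vehicle (right), in pathway order with lines between sterol, regulator and fatty acid members. Bars are exact 95% counting intervals, open circles mark members below 20 CPM, and dashed lines mark the limit. Most members lie inside the grey band that holds the middle 50% of all measured genes. Srebf1, Hmgcs1 and Idi1 lie to its right. To its left lie Lss, Insig1, Srebf2, Scd, Scd2 and Elovl6, and, below 20 CPM, Hsd17b7, Mvk, Acat2, Acaca and Acsl4.

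The branches differed in direction. Summed over its 17 members, sterol synthesis stood at 4563.2 CPM in the ZD7288 library and 3838.5 CPM in the vehicle library, a ratio of 1.19 (1.18 to 1.20). Summed over its 11 members, fatty acid synthesis stood at 1373.7 CPM in the ZD7288 library and 1694.0 CPM in the vehicle library, a ratio of 0.811 (0.80 to 0.82). Expressed as a share that does not depend on how the libraries are scaled, sterol genes held 76.9% (76.7 to 77.0) of the UMIs of both branches in the ZD7288 library and 69.4% (69.1 to 69.7) in the vehicle library. The median log2 ratio was 0.20 over the 14 measured sterol genes and -0.15 over the 7 measured fatty acid genes. Of the measured sterol genes 10 (71.4%) lay above 0, and of the measured fatty acid genes 2 (28.6%) did, beside 59.9% of all measured genes. Neither sum passed the limit, and the sterol ratio was 0.957 (0.941 to 0.973) in cells with at most 5% mitochondrial UMIs. Scd2 alone set the fatty acid sum: without it the other 10 genes stood at 626.4 CPM in the ZD7288 library and 624.8 CPM in the vehicle library, a ratio of 1.00 (0.981 to 1.03). Without Scd2 the sterol share was 87.9% (87.8 to 88.0) in the ZD7288 library and 86.0% (85.7 to 86.3) in the vehicle library.

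Within the sterol branch the early steps stood furthest apart. The 7 genes from acetyl-CoA to farnesyl diphosphate summed to 2653.8 CPM in the ZD7288 library and 2101.8 CPM in the vehicle library, a ratio of 1.263 (1.248 to 1.278). Hmgcs1 (ENSRNOG00000016552), which makes HMG-CoA, stood at 438.9 CPM in the ZD7288 library and 312.5 CPM in the vehicle library, a ratio of 1.404 (1.36 to 1.45). Idi1 (ENSRNOG00000016690), the isopentenyl diphosphate isomerase, stood at 711.0 CPM in the ZD7288 library and 531.1 CPM in the vehicle library, a ratio of 1.34 (1.31 to 1.37). Both intervals lay wholly above the limit over all cells, but not in cells with at most 5% mitochondrial UMIs, where Idi1 had a ratio of 0.983 (0.942 to 1.03). Fdps, the farnesyl diphosphate synthase, stood at 1285.8 CPM in the ZD7288 library and 1055.9 CPM in the vehicle library, a ratio of 1.22 (1.20 to 1.24), short of the limit. Between them in the pathway, Pmvk, the phosphomevalonate kinase, had 108.2 CPM in the ZD7288 library and 96.2 CPM in the vehicle library, a ratio of 1.13 (1.07 to 1.19). Mvd, the diphosphomevalonate decarboxylase, had 103.2 CPM in the ZD7288 library and 97.2 CPM in the vehicle library, a ratio of 1.06 (1.01 to 1.12). All 5 measured genes of this stretch had ratios above 1. Mvk, the mevalonate kinase, was near the limit of detection with 83 UMIs in the ZD7288 library and 23 in the vehicle library. Acat2, the cytosolic thiolase of the first step, had 5.63 CPM in the ZD7288 library and 7.49 CPM in the vehicle library. RefSeq also lists a gene named Acat2l1, and whether the counting split reads between them was not tested.

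The squalene and lanosterol steps showed no common shift. Summed over Fdft1, Sqle and Lss, they stood at 524.7 CPM in the ZD7288 library and 517.9 CPM in the vehicle library, a ratio of 1.01 (0.989 to 1.04). Fdft1, the squalene synthase that commits farnesyl diphosphate to sterols, had 166.0 CPM in the ZD7288 library and 139.1 CPM in the vehicle library, a ratio of 1.19 and a log2 ratio of 0.26 (0.19 to 0.32). Sqle, the squalene epoxidase and a rate-limiting enzyme, had 277.0 CPM in the ZD7288 library and 284.4 CPM in the vehicle library, a ratio of 0.974 (0.943 to 1.01) whose interval holds 1. Lss, the lanosterol synthase, had 81.8 CPM in the ZD7288 library and 94.4 CPM in the vehicle library, a ratio of 0.866 (0.818 to 0.917), the smallest of the measured sterol members.

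The 7 genes that turn lanosterol into cholesterol summed to 1384.7 CPM in the ZD7288 library and 1218.8 CPM in the vehicle library, a ratio of 1.14 (1.12 to 1.15), and none of the 6 measured passed the limit. Cyp51, the lanosterol demethylase, had 497.7 CPM in the ZD7288 library and 407.6 CPM in the vehicle library, a ratio of 1.22 (1.19 to 1.254). Msmo1, the methylsterol monooxygenase, had 578.9 CPM in the ZD7288 library and 523.5 CPM in the vehicle library, a ratio of 1.11 (1.08 to 1.13). Sc5d, a sterol desaturase, had a ratio of 1.21 (1.13 to 1.28), and Nsdhl, a sterol dehydrogenase, had a ratio of 1.17 (1.10 to 1.249). Ebp, the sterol isomerase, and Dhcr7, the reductase of the last step, had ratios of 0.999 (0.930 to 1.07) and 0.998 (0.932 to 1.07). Hsd17b7, a sterol ketone reductase, was below the floor at 13.0 CPM in the ZD7288 library and 19.8 CPM in the vehicle library, a ratio of 0.658 (0.578 to 0.750), below those of the 6 measured genes.

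Of 5 other sterol synthesis genes, listed for the pathway but not members, 4 were measured. Of these, 2 (50%) were higher and 1 (25%) was lower, beside 26.1% and 12.2% of all measured genes. Erg28, known in yeast as a scaffold of sterol enzymes, had a ratio of 1.34 (1.27 to 1.41).

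Of the regulators, Srebf1 and Srebf2, which encode the SREBPs, had ratios on opposite sides of 1. Srebf1 (ENSRNOG00000003463), whose product mainly drives fatty acid genes, had 44.2 CPM (42.7 to 45.8) in the ZD7288 library and 28.7 CPM (26.1 to 31.5) in the vehicle library, a ratio of 1.54 (1.395 to 1.705). Srebf2 (ENSRNOG00000007400), whose product mainly drives sterol genes, had 82.7 CPM in the ZD7288 library and 92.7 CPM in the vehicle library, a ratio of 0.892 (0.842 to 0.945). Srebf1 held 34.9% (33.9 to 35.8) of the UMIs of the pair in the ZD7288 library and 23.6% (21.7 to 25.6) in the vehicle library. The summed fatty acid members were lower, though not without Scd2, where the ratio was 1.00. The summed sterol members were higher, though not in cells up to 5% mitochondrial UMIs, where the log2 ratio was -0.063. How these sums relate to the levels of Srebf1 and Srebf2 was not tested. Insig1 (ENSRNOG00000006859), which retains SREBPs and is itself an SREBP target, had 238.1 CPM in the ZD7288 library and 295.1 CPM in the vehicle library, a ratio of 0.807 (0.781 to 0.834), just short of the limit. Hmgcs1 and Insig1, both SREBP targets, had ratios on opposite sides of 1, and Hmgcs1 held 64.8% (64.4 to 65.2) of their joint UMIs in the ZD7288 library and 51.4% (50.4 to 52.4) in the vehicle library. Stard4, which carries cholesterol between membranes, was below the floor at 15.1 CPM in the ZD7288 library and 16.4 CPM in the vehicle library. Of 13 genes of the SREBP machinery 5 were measured and 0 passed the limit in either direction, beside 26.1% higher and 12.2% lower of all measured genes. Among them were the NF-Y subunit genes Nfyb, with a ratio of 1.01 (0.947 to 1.09), and Nfyc, with a ratio of 0.872 (0.818 to 0.930).

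In the fatty acid branch 2 measured members were lower, the desaturase gene Scd2 and the elongase gene Elovl6. Scd2 (ENSRNOG00000046005), a stearoyl-CoA desaturase abundant in brain, had 747.3 CPM (741.0 to 753.5) in the ZD7288 library and 1069.2 CPM (1053.1 to 1085.6) in the vehicle library, a ratio of 0.699 (0.687 to 0.711). Its paralog Scd had 50.8 CPM in the ZD7288 library and 60.4 CPM in the vehicle library, a ratio of 0.840 (0.782 to 0.903). Whether the counting split reads between these paralogs was not tested, and Scd2 held 93.64% (93.44 to 93.84) of their joint UMIs in the ZD7288 library and 94.65% (94.31 to 94.98) in the vehicle library. Olig1, Olig2 and Cnp of the oligodendrocyte lineage list were lower in the same library, at ratios of 0.531, 0.620 and 0.475, and the 8 markers of that list with UMIs in both libraries all had ratios below 1. The lineage-defining markers Sox10 and Mbp were each at 0.136 CPM in the ZD7288 library and 0.192 CPM in the vehicle library. The part of this list in the Scd2 value was not tested.

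Fads1, which desaturates polyunsaturated fatty acids, had 76.7 CPM in the ZD7288 library and 83.7 CPM in the vehicle library, a ratio of 0.917 (0.863 to 0.975). Acly, which makes cytosolic acetyl-CoA for both branches, had 208.9 CPM in the ZD7288 library and 191.8 CPM in the vehicle library, a ratio of 1.09 (1.05 to 1.13). Fasn, the fatty acid synthase, had 62.6 CPM in the ZD7288 library and 69.2 CPM in the vehicle library, a ratio of 0.904 (0.846 to 0.967). None of these passed the limit. Elovl6 (ENSRNOG00000048949), an elongase of saturated fatty acids, did, at 55.2 CPM in the ZD7288 library and 69.4 CPM in the vehicle library, a ratio of 0.796 (0.744 to 0.851) whose interval holds the limit. Acsl3, which activates fatty acids to their CoA esters, stood on the other side at 153.6 CPM in the ZD7288 library and 128.9 CPM in the vehicle library, a ratio of 1.19 and a log2 ratio of 0.25 (0.18 to 0.32). Its relative Acsl4, which prefers arachidonic acid, had 14.2 CPM in the ZD7288 library and 17.04 CPM in the vehicle library. Fads2, a further desaturase gene, had 3.24 CPM in the ZD7288 library and 2.95 CPM in the vehicle library. Acaca, the acetyl-CoA carboxylase, had 36 UMIs in the ZD7288 library and 11 in the vehicle library, and the elongase Elovl5 had 50 in the ZD7288 library and 11 in the vehicle library, so neither could be compared at this depth.

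Other genes of fatty acid synthesis, not members, had a median above that of the members. Of 21 matched, 13 were measured. Of these, 6 (46.2%) were higher and 1 (7.69%) was lower, beside 26.1% and 12.2% of all measured genes. Their median was 0.20 on the log2 scale, beside 0.09 for all measured genes and -0.15 for the fatty acid members. Acsbg1, a brain acyl-CoA synthetase, had 49.1 CPM in the ZD7288 library and 14.5 CPM in the vehicle library, a ratio of 3.37 (2.95 to 3.87). Me1, the malic enzyme that supplies NADPH, had 62.4 CPM in the ZD7288 library and 27.2 CPM in the vehicle library, a ratio of 2.30 (2.08 to 2.54). Acss2, which makes acetyl-CoA from acetate, had 104.4 CPM in the ZD7288 library and 65.7 CPM in the vehicle library, a ratio of 1.59 (1.49 to 1.70). Slc25a1, the mitochondrial citrate carrier that feeds Acly, was lower, at 48.7 CPM in the ZD7288 library and 75.3 CPM in the vehicle library, a ratio of 0.646 (0.605 to 0.691). These 4 genes were named for the largest differences in their list, so their distance from 1 does not stand for the whole list. The quartiles of its 13 measured genes were 0.10 and 0.46 on the log2 scale.

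Genes that use, bind or store fatty acids were mixed. Their counts stand beside 26.1% of all measured genes higher and 12.2% lower. Of 5 measured binding and uptake genes, Fabp3 was higher at a ratio of 1.64 (1.52 to 1.78) and Fabp7, which is also on the neural stem cell marker list, was lower at 0.764 (0.756 to 0.773). Of 9 measured oxidation genes 2 (22.2%) were higher, a share below that of all genes, and 0 were lower. Hadhb, a subunit of the mitochondrial trifunctional protein, was at 1.33 (1.27 to 1.39). Acadvl, the very-long-chain acyl-CoA dehydrogenase, was at 1.29 (1.14 to 1.47). Of 4 measured glycerolipid genes Agpat1, an acyltransferase of phospholipid synthesis, was lower at 0.773 (0.733 to 0.816). Of 12 genes of efflux, liver X receptor control and esterification 2 were measured, Nr1h2 at 0.893 (0.815 to 0.979) and Rxrb at 1.14 (1.02 to 1.28), and 0 passed the limit.

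**Figure D2:**
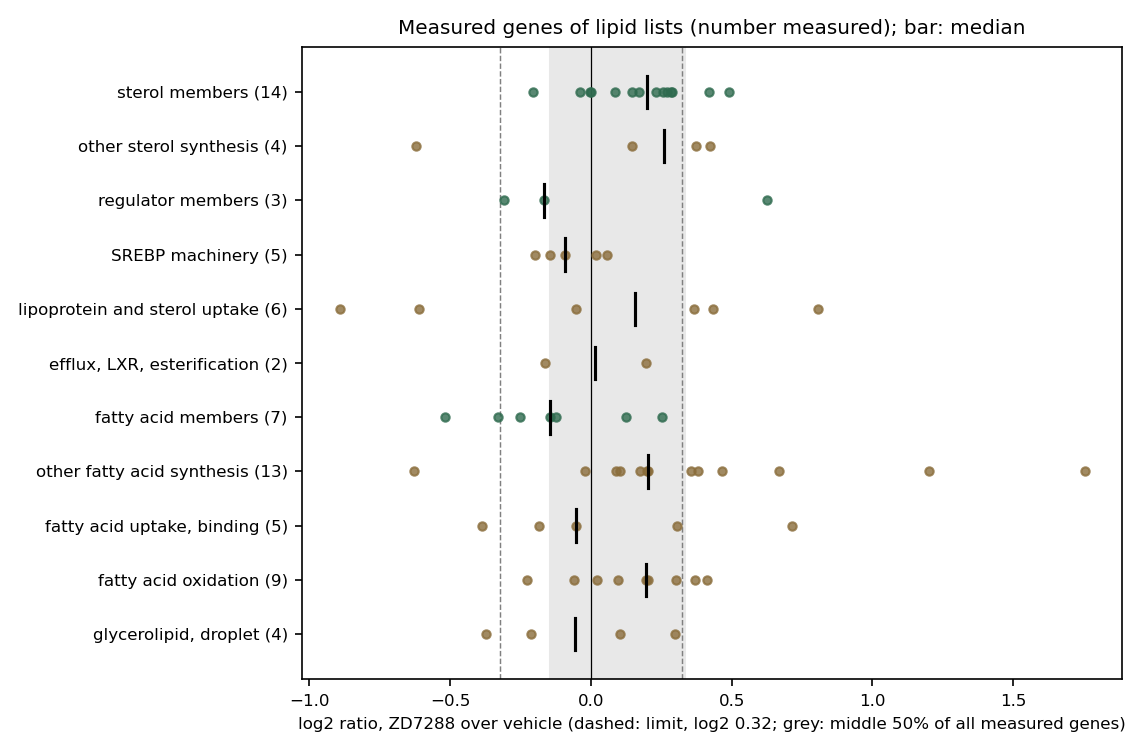
Log2 ratio of ZD7288 over vehicle for each measured gene (points) of 11 lipid lists, with the number measured in brackets and the median as a bar; green points are members and brown points are other genes. The sterol members have a median of 0.20 and the fatty acid members one of -0.15, while single uptake and other fatty acid synthesis genes lie far beyond the dashed limit lines and the grey band of the middle 50% of all measured genes.

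Uptake was set against synthesis through 13 genes of lipoprotein and sterol uptake. Their sum was 473.5 CPM in the ZD7288 library and 414.6 CPM in the vehicle library, a ratio of 1.14 (1.11 to 1.17), and sterol synthesis held 90.60% (90.50 to 90.69) of the UMIs of both in the ZD7288 library and 90.25% (90.02 to 90.48) in the vehicle library. The balance of synthesis and uptake thus differed by less than 1 percentage point, but single uptake genes differed widely. Of 6 measured, 3 (50%) were higher and 2 (33.3%) lower, beside 26.1% and 12.2% of all measured genes. With so few genes these shares say little about the list. Lrp1, a large receptor for apolipoprotein E particles, had 19.2 CPM in the ZD7288 library and 35.7 CPM in the vehicle library, a ratio of 0.539 (0.488 to 0.595). Lrpap1, the chaperone of this receptor family, was higher with 55.7 CPM in the ZD7288 library and 31.8 CPM in the vehicle library, a ratio of 1.75 (1.59 to 1.92). Npc2, which takes cholesterol out of lysosomes, had 209.0 CPM in the ZD7288 library and 162.2 CPM in the vehicle library, a ratio of 1.29 (1.24 to 1.34), and without it the uptake sum had a ratio of 1.05 (1.01 to 1.08).

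Vldlr, a receptor for apolipoprotein E-rich particles, lay below the floor by its mean and is named after its values were seen. It had 25.7 CPM in the ZD7288 library and 6.85 CPM in the vehicle library, a ratio of 3.74 (3.08 to 4.59).

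The share of mitochondrial UMIs moved with the sterol result. In cells with at most 5% mitochondrial UMIs the sterol sum was 4678.7 CPM in 1912 ZD7288 cells and 4889.1 CPM in 173 vehicle cells, a ratio below 1. In cells above 5% it was 4401.6 CPM in 1223 ZD7288 cells and 3579.5 CPM in 559 vehicle cells, a ratio of 1.23 (1.22 to 1.24). The sterol difference was thus present in cells above 5% and had the opposite direction in cells up to 5%. Within the vehicle library the sterol level was lower in each bin of the mitochondrial share above 5%, with 4744.7 CPM up to 4%, 4924.0 CPM at 4 to 5%, 4016.8 CPM at 5 to 6%, 3482.8 CPM at 6 to 7% and 3042.8 CPM at 7 to 10%. Within the ZD7288 library the same bins held 4698.9, 4666.8, 4503.1, 4256.9 and 4063.5 CPM, a shallower slope. Vehicle cells up to 5% over vehicle cells above 5% had a sterol log2 ratio of 0.45, beside a median of 0.13 over all measured genes, and the same ratio in ZD7288 cells was 0.09, beside 0.05. The part of the mitochondrial share in the sterol result between libraries was not tested beyond these values.

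Single members kept or lost their direction in the cells with at most 5% mitochondrial UMIs. Hmgcs1 had a ratio of 1.20 (1.13 to 1.27) there. Srebf1 had a ratio of 1.61 (1.31 to 2.02), Scd2 one of 0.791 (0.761 to 0.823) and Insig1 one of 0.730 (0.684 to 0.780). Of the 24 measured members, 7 with log2 ratios above 0 over all cells had values below 0 there: Idi1, Fdft1, Fdps, Mvd, Msmo1, Nsdhl and Acly. Idi1 and Acly were near 0 there, at -0.024 and -0.0049. The same count over all measured genes is not given here, so these changes cannot be read as particular to the members. Srebf1, Scd2 and Insig1 stood on the same side of 1 in both mitochondrial classes, as did Vldlr with a ratio of 4.49 (2.90 to 7.38), while the sterol sum did not. The fatty acid sum had a ratio of 0.850 (0.826 to 0.876) in cells up to 5% and 0.818 (0.805 to 0.831) above it. Sterol genes held 77.6% (77.4 to 77.8) of the UMIs of both branches in ZD7288 cells up to 5% and 75.5% (74.9 to 76.1) in vehicle cells up to 5%, a smaller gap than over all cells.

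**Figure D3:**
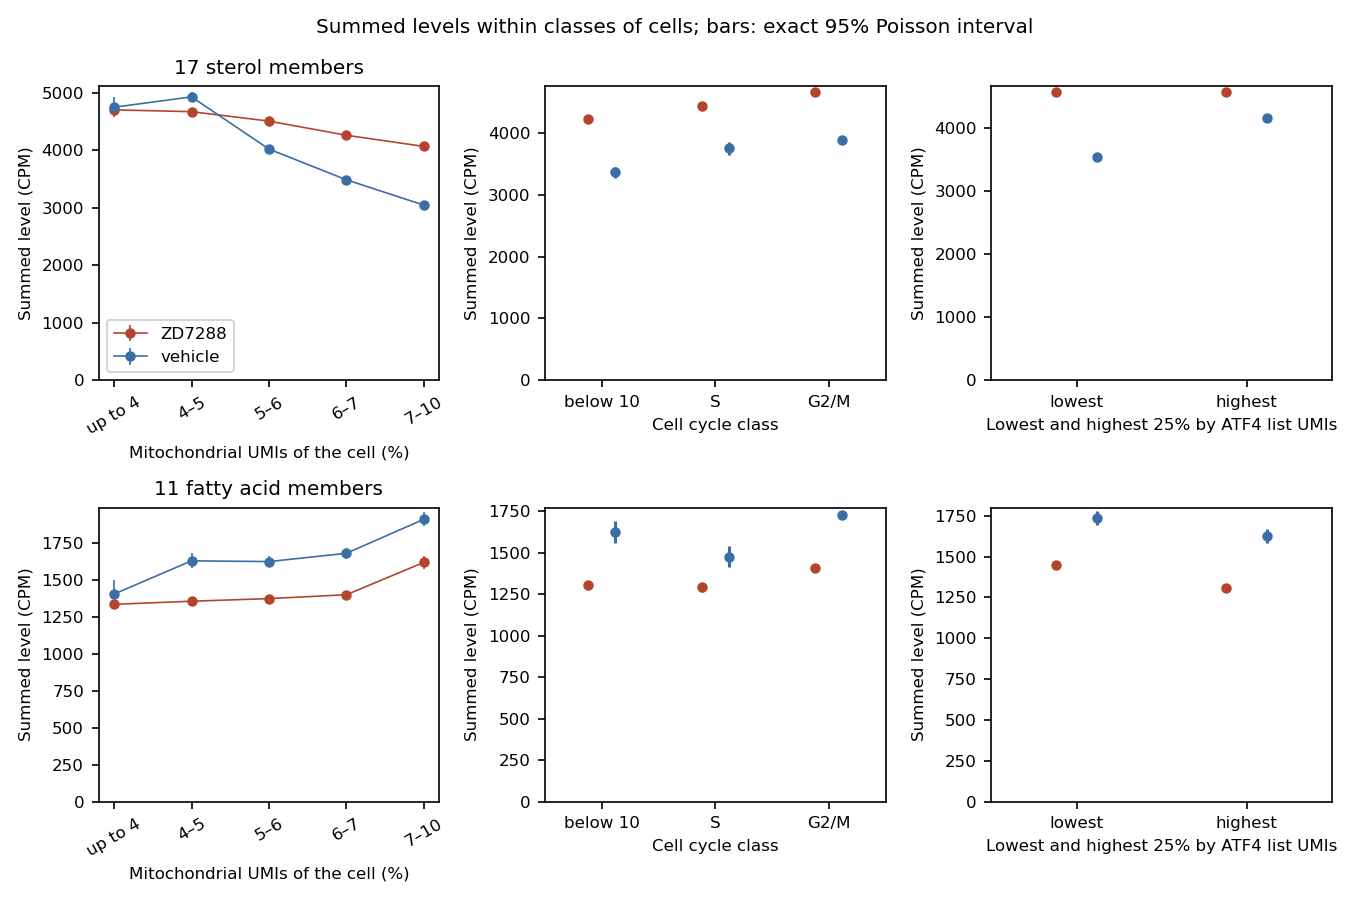
Summed level in CPM of the 17 sterol members (top) and 11 fatty acid members (bottom) by mitochondrial share of the cell, cell cycle class and lowest and highest 25% of cells by ATF4 list UMIs, with ZD7288 in red and vehicle in blue and exact 95% Poisson intervals. The sterol lines cross at the 5% mitochondrial share, with 4924.0 CPM in vehicle cells at 4 to 5%, and the fatty acid sum is lower in ZD7288 cells in every class drawn.

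Cell cycle class made less difference. Each cell was thinned to 2000 UMIs and classed as below 10 UMIs over S phase plus G2/M genes, or otherwise by its larger list. These list classes are called S and G2/M, and the lists were not scaled to each other. Over all kept cells the G2/M list held 6888.4 CPM in the ZD7288 library and 7401.9 CPM in the vehicle library. The S phase list held 2273.3 CPM in the ZD7288 library and 2333.9 CPM in the vehicle library. The G2/M class took in 62.1% of kept ZD7288 cells and 77.5% of kept vehicle cells. Whether cells of a class were in that phase was not tested. Cells of 8 to 12 UMIs, near the limit, were 14.8% of thinned ZD7288 cells and 15.5% of thinned vehicle cells. The sterol ratio was 1.26 (1.22 to 1.29) in 663 ZD7288 and 80 vehicle cells below 10, 1.18 (1.15 to 1.22) in 347 ZD7288 and 77 vehicle S cells, and 1.20 (1.19 to 1.21) in 1946 ZD7288 and 567 vehicle G2/M cells. The fatty acid ratio was 0.804 (0.770 to 0.840), 0.874 (0.833 to 0.918) and 0.815 (0.803 to 0.828) in the same classes. In both libraries the sterol sum was higher in G2/M cells than in cells below 10, by a ratio of 1.11 (1.10 to 1.12) in the ZD7288 library and 1.16 (1.13 to 1.19) in the vehicle library. Within the ZD7288 library, G2/M cells over cells below 10 had a ratio of 1.36 (1.254 to 1.473) for Dhcr7, 1.32 (1.22 to 1.44) for Ebp and 1.24 (1.20 to 1.27) for Hmgcs1.

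The 25% of cells with the most UMIs of the ATF4 list and the 25% with the fewest were compared within each library, because the list differed too much between libraries for common limits. In the ZD7288 library the highest 25% over the lowest 25% had a sterol ratio of 1.00 (0.992 to 1.01) and a fatty acid ratio of 0.902 (0.887 to 0.917). Srebf1 followed the ATF4 list among these cells, with 51.0 CPM in the highest 25% and 37.2 CPM in the lowest, a ratio of 1.37 (1.245 to 1.51). Vldlr did so more, with 33.9 CPM in the highest 25% and 16.1 CPM in the lowest, a ratio of 2.10 (1.83 to 2.41). Scd2 had a ratio of 0.865 (0.845 to 0.885) and Insig1 one of 0.885 (0.849 to 0.922). Other members did not follow the difference between libraries in this way: Idi1 had a ratio of 0.947 (0.924 to 0.970) and Acly one of 0.887 (0.849 to 0.927), though both were above 1 between the libraries, and Hmgcs1 had one of 0.980 (0.951 to 1.01). In the vehicle library the same split had a sterol ratio of 1.18 (1.15 to 1.20), a Scd2 ratio of 0.884 (0.847 to 0.923) and a Srebf1 ratio of 0.972 (0.743 to 1.27), the last resting on 109 UMIs in the highest and 119 in the lowest 25%. The median mitochondrial share was 4.21% in the highest and 5.46% in the lowest 25% of ZD7288 cells, so these splits overlap, and their parts were not separated.

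**Figure D4:**
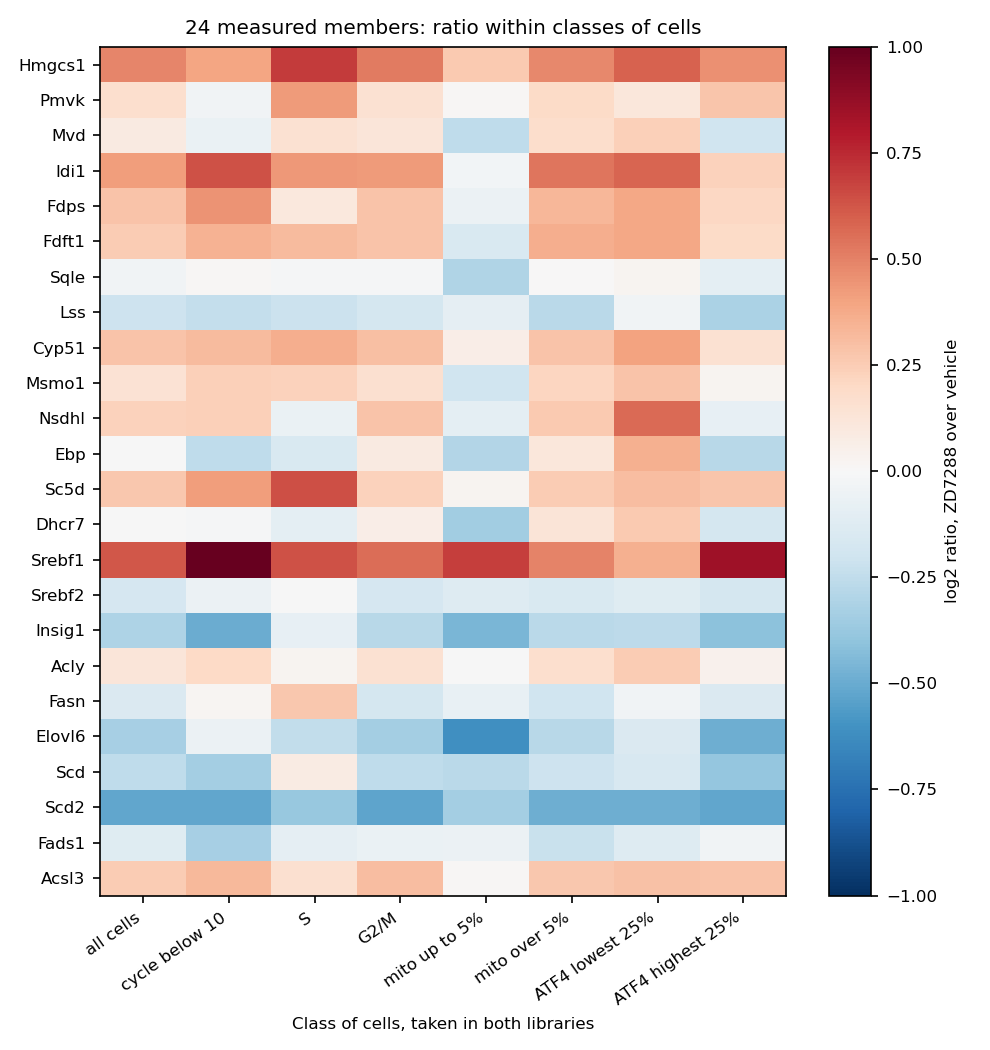
Log2 ratio of ZD7288 over vehicle for the 24 measured members (rows, in pathway order) in all cells and in 7 classes of cells (columns), on one colour scale from -1 to 1. Srebf1 is red in every column and Scd2 blue in every column, while most sterol rows are pale or blue in cells up to 5% mitochondrial UMIs and red in cells above 5%.

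With every cell thinned to 10000 UMIs, which left out 372 ZD7288 and 71 vehicle cells, the sterol members had a mean of 45.6 UMIs per cell (SD 14.01 over 2763 cells) in the ZD7288 library and 38.8 (SD 14.48 over 661 cells) in the vehicle library. The 10th, 50th and 90th percentiles were 29, 44 and 63 UMIs in ZD7288 cells and 23, 37 and 57 in vehicle cells. The fatty acid members had a mean of 13.5 UMIs per cell (SD 4.72) in the ZD7288 library and 16.3 (SD 5.74) in the vehicle library. The variance of the sterol count was 4.31 times its mean in ZD7288 cells and 5.40 times its mean in vehicle cells, above the value of 1 that counting alone gives. For the fatty acid count these figures were 1.65 in ZD7288 cells and 2.02 in vehicle cells.

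Across cells, which share a library and are not replicates, the sterol count had a Pearson correlation of 0.24 with the fatty acid count in ZD7288 cells and of 0.18 in vehicle cells. Its correlation with the G2/M list was 0.24 in ZD7288 cells and 0.26 in vehicle cells. With the ATF4 list it was 0.03 in ZD7288 cells and 0.35 in vehicle cells. These are descriptions at one depth of 10000 UMIs per cell.

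**Figure D5:**
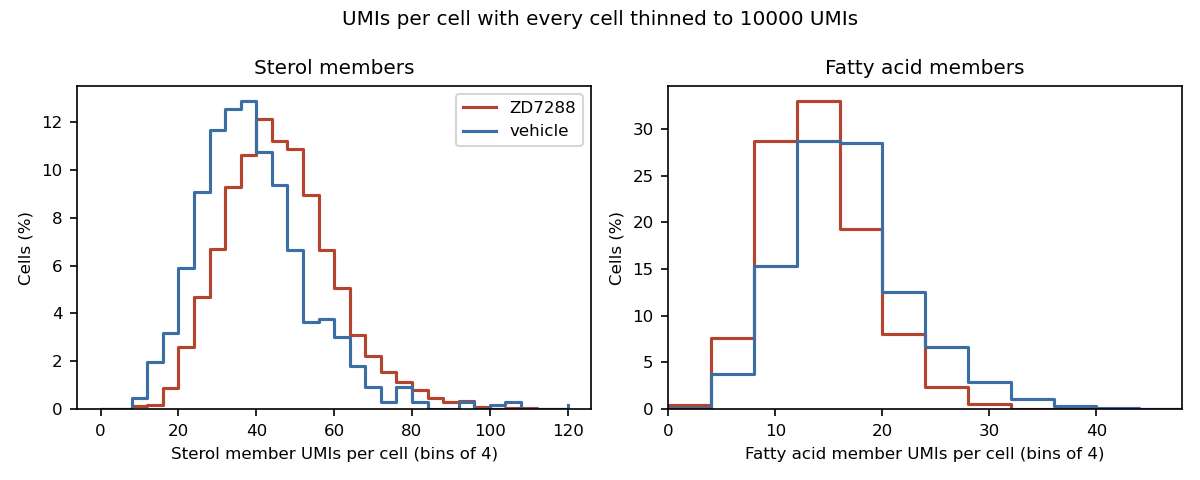
Percentage of cells by UMIs per cell of the sterol members (left) and fatty acid members (right), in bins of 4 UMIs with every cell thinned to 10000 UMIs, for 2763 ZD7288 cells (red) and 661 vehicle cells (blue). Each library has 1 main peak. The median sterol count is 44 UMIs in ZD7288 cells and 37 in vehicle cells, and the median fatty acid count is 13 in ZD7288 cells and 16 in vehicle cells.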

How the data were processed

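The authors deposited raw UMI counts for both libraries in 1 matrix, made with Cell Ranger per the submitters' processing notes, version 3.0.2 per the file headers. The deposited counts are unnormalized. For genome build, annotation and cell calling, the sources used here give nothing. The capture used 10x Chromium 3′ chemistry, version 2, per the labels. The library of each barcode was read from its suffix, matched to the number in the sample title, and every direction rests on that match. No other sample columns were present.

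Cells with at least 1000 UMIs, 500 genes and at most 10% mitochondrial UMIs were kept. UMIs were summed per library and scaled to CPM, and ratios were given with exact Clopper-Pearson intervals, CPM with exact Poisson intervals. A count of 0 allows up to 3 counts, or 0.0407 CPM in the ZD7288 library and 0.192 CPM in the vehicle library. Doublets were scored against simulated pairs, and 79 ZD7288 and 4 vehicle cells were marked, kept, and left out in an alternative. Cells were thinned to 2000 UMIs for classes (leaving out 179 ZD7288 and 8 vehicle cells) and to 10000 UMIs for counts per cell. The lowest and highest 25% by ATF4 list UMIs were set at 10 and 19 UMIs in the ZD7288 library and at 2 and 6 UMIs in the vehicle library.

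Of 307 list symbols 300 were matched. All members could be named, and of every other list up to 4 measured genes with the largest differences past the limit, or, if none passed, the 2 of highest CPM. Some genes that this rule would name are not reported here. Cell type markers are named as checks. Members and lists were chosen with earlier results of these data known. CPM here are not scaled for length. Beyond this naming rule, the sums and the shares of joint UMIs, levels are not compared between genes. TMM scaling used edgeR 4.0.16 and median ratio scaling DESeq2 1.42.0, for factors only. Ratios were tested on simulated data. Python 3.11.15, SciPy 1.17.1 and R 4.3.3 were used.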

Additional observations from a re-analysis of the deposited data

How the results depend on the processing

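With 1 library per group nothing here has a replicate check. The 8 members below 20 CPM were left uncalled by that floor, and depth limits those with few UMIs, such as Mvk, Acaca and Elovl5. No paired analysis was possible because each group was 1 library. Of 414 log2 ratios of single members under other settings, 317 stayed inside the counting interval of the reported value, and 97 did not. Among the 24 measured members 30 values had the other sign, 20 of them outside that interval. Of the 30, 7 were in cells up to 5% mitochondrial, including Idi1 at -0.024, the 1 case in which a member past the limit changed sign. Sign changes over all measured genes are not given here. The settings with cells over 5%, and the sums without single genes, were chosen after seeing the data.

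The sterol log2 ratio, reported as 0.25, was -0.063 in cells up to 5% mitochondrial, 0.30 over 5%, 0.29 over 5% with at least 10 cell cycle UMIs, 0.33 below 10 cell cycle UMIs, 0.18 scaled without mitochondrial and ribosomal protein UMIs, 0.23 thinned to 2000 UMIs and 0.24 without Fdps. The fatty acid log2 ratio, reported as -0.30, was 0.0038 without Scd2, -0.23 up to 5% mitochondrial, -0.24 thinned, -0.27 as a mean per cell and -0.37 scaled without mitochondrial and ribosomal protein UMIs. The uptake log2 ratio, reported as 0.19, was 0.12 under that scaling, 0.048 up to 5% mitochondrial, 0.24 over 5%, 0.30 below 10 cell cycle UMIs and 0.068 without Npc2.

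The 3 higher members became 1 up to 5% mitochondrial, 5 over 5%, 6 below 10 cell cycle UMIs, 1 at 1.5-fold and 0 at 2-fold. The 2 lower members became 6 scaled without mitochondrial and ribosomal protein UMIs, 4 up to 5% mitochondrial, 4 below 10 cell cycle UMIs, 4 with a floor of 5 CPM, 1 without marked doublets, 1 over 5% mitochondrial, 1 over 5% with at least 10 cell cycle UMIs, and 0 at 1.5-fold and 0 at 2-fold. Apart from the 1.5-fold rule, the shares of all measured genes under these settings are not given here. These moves can thus not be read as particular to the members, and their cause was not tested.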
